A study of Mus musculus with 2 samples.

Results

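The keratin-low non-dividing cancer cells were the lowest of 3 equal classes of the non-dividing RM-1 cancer cells by the share of unique molecular identifiers (UMIs) in Krt8, Krt18 and Krt19, and they numbered 835 of 2503 gated cells in the control library and 1003 of 3008 in the enzalutamide (ENZ) library. The control library held 13854 barcodes with at least 500 UMIs and the ENZ library 11366. The gate took barcodes with at least 8000 UMIs, at most 20% mitochondrial UMIs and at most 1 UMI of Ptprc, the pan-leukocyte CD45 gene. It further asked for at least 5 UMIs summed over Cacna2d1, Rbfox2, Kif21a and Rhox5, taken as RM-1 markers but also counted in other cells. Fewer than 10 UMIs in all were allowed of the fibroblast genes Dcn, Lum and Dpt. The same limit held for the division genes Top2a, Mki67, Cenpf and Ube2c. Non-dividing means under this limit only, and some clusters of the gate were led by other division genes, as given below. Since keratin UMIs chose the cells, the low keratins are a description and not a result.

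RM-1 is a murine prostate cancer line that the study used as a model of intrinsic resistance to ENZ, a hormonal drug for prostate cancer. Wild-type RM-1 cells were grown orthotopically in the prostate of C57BL/6 mice, and tumors of a pair of mice, given vehicle (control) or ENZ, were profiled by droplet-based single-cell RNA sequencing after a sort that enriched immune cells. Each condition was 1 library of 170830346 UMIs (control) or 162030149 UMIs (ENZ), so no test between conditions was possible, cells were not treated as replicates, and every interval below is a 95% interval that covers counting error only. A difference between the libraries cannot be told apart from a difference between these mice, their sorts or their library preparations.

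Keratins 8, 18 and 19 form the intermediate filaments of simple epithelia such as the luminal layer of the prostate. Carcinoma cells can lose them when they take on a mesenchymal state, in which fibronectin, fibrillar collagens and vimentin are made. Protocadherins, glypicans and ephrins belong to the surface molecules through which such cells contact matrix and neighbours, and the TALE homeobox factors such as the Meis family bind DNA together with Hox proteins.

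Keratin-low is by its rule a range of the keratin share, with a limit set by rank. The median was 1.03 keratin UMIs per 10000 UMIs in keratin-low control cells against 7.72 in the rest of the gate, and 1.76 against 10.3 in the ENZ library. The last control cell inside the limit had 2.54 keratin UMIs per 10000 and the first outside 2.55, and both values were 3.85 in the ENZ library, so a cell with the same share could fall in different classes in the 2 libraries. Within 10% of the limit lay 123 control cells (4.91% of the gate) and 171 ENZ cells (5.68%). No keratin UMI at all was counted in 184 keratin-low control cells (22.0%) and in 136 ENZ cells (13.6%). Krt8 stood at 63.0 CPM, the UMIs of a gene scaled to the same total of all UMIs in each class, in keratin-low control cells and 579.8 in the rest, and at 114.1 and 677.0 in the ENZ library. The median number of keratin UMIs per keratin-low cell was 2 (control) and 3 (ENZ).

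**Figure D1:**
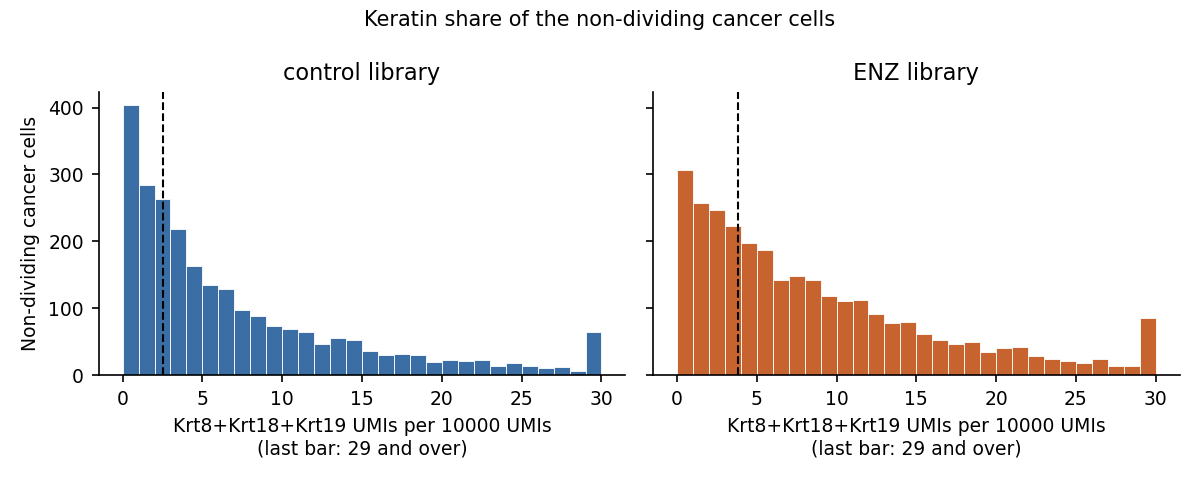
Histograms of the keratin share (x axis, Krt8, Krt18 and Krt19 UMIs per 10000 UMIs) over the non-dividing cancer cells (y axis, number of cells) of the control and ENZ libraries; the dashed line is the upper limit of the keratin-low class. The first bar is the highest in both libraries (403 and 307 cells), and the last bar pools all cells at 29 and over (64 and 86 cells); the limit is at 2.54 (control) and 3.85 (ENZ).

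The promoters of the 2 keratin genes that carried most of the ranking are shown since the class is defined by their transcripts. Each runs 5′ to 3′ on the gene's strand from 250 bases before to 50 bases after the RefSeq start (build GRCm38.p6), and capitals mark matches on either strand to the E-box CACCTG bound by Snail and ZEB repressors, the AP-1 motif TGANTCA, the GC box GGGCGG and the TATA box TATAAA.
Krt8, chr15:102004293-102004592, minus strand: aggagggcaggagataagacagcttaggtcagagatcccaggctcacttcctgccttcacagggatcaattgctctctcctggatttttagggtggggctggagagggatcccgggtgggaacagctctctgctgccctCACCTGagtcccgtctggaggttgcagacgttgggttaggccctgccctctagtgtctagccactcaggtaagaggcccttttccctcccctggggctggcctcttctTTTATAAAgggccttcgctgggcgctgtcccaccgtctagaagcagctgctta
Krt18, chr15:102027966-102028265, plus strand: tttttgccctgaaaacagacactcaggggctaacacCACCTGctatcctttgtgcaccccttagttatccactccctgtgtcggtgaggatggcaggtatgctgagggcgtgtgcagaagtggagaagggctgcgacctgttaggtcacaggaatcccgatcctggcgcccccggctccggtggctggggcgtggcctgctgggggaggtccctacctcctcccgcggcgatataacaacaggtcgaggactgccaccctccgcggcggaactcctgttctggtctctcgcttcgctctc
Each held 1 E-box, at -111 in Krt8 and -214 in Krt18 (first base, from the start site), where 20.2% of 32851 promoters of this length held the letters. Krt8 also held TATAAA in both orientations, overlapping within TTTATAAA. A match is a description of the letters only.

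The label was checked against genes that the ranking did not use. All 4 markers given for these cells were higher in keratin-low cells than in the rest of the gate of both libraries, by the fold used throughout (a ratio of at least 1.5 among genes at 50 CPM or more in either group), but Meis2 and Efna5 were not when the classes were matched on the share of UMIs in long genes. The markers had been chosen with results of these libraries known, so their ratios describe the class and do not support it. Pcdh9, a protocadherin of neural cells (chr14:93013410-93890679 on GRCm38, minus strand, a gene spanning 877270 bases), stood at 558.3 CPM in keratin-low control cells against 166.0 in the rest, and at 438.8 against 108.0 in the ENZ library. The ratios were 3.36 (3.25 to 3.48) and 4.06 (3.92 to 4.21), and Pcdh9 stood at 69.1 and 50.03 CPM in the class with the most keratin.

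Gpc6, a glypican that carries heparan sulfate at the cell surface (chr14:116925315-117976544, plus strand, 1051230 bases), stood at 273.9 CPM against 78.4 in the control library and 248.0 against 73.2 in the ENZ library, ratios of 3.49 (3.33 to 3.67) and 3.39 (3.24 to 3.54). Meis2, a TALE homeobox factor (chr2:115863064-116065839, minus strand, 202776 bases), stood at 352.1 against 173.1 CPM and 306.5 against 155.2, ratios of 2.03 (1.959 to 2.111) and 1.97 (1.91 to 2.05). Efna5, the ephrin-A5 ligand of Eph receptors (chr17:62604184-62881317, minus strand, 277134 bases), stood at 402.8 against 233.2 CPM and 309.1 against 197.7, ratios of 1.73 (1.67 to 1.79) and 1.56 (1.51 to 1.62). The order of the ratios was not the same in both libraries, since Gpc6 and Pcdh9 changed places.

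The markers were not confined to keratin-low cells. Fibroblast-like barcodes (69 control, 83 ENZ) met the gate's depth, mitochondrial, Ptprc and RM-1 marker rules but held at least 10 UMIs of Dcn, Lum and Dpt. Only 33.3% and 32.5% of them had no Rhox5 UMI, so they were not fibroblasts free of RM-1 RNA. In these barcodes the 4 markers summed to 1154.5 (control) and 971.0 CPM (ENZ), beside 1587 and 1302 in keratin-low cells. Which cells those UMIs came from was not tested. Gpc6 stood there at 483.5 and 406.2 CPM, above its 273.9 and 248.0 in keratin-low cells. In keratin-low cells with no Rhox5 UMI the markers summed to 529.4 and 769.5 CPM. After each cell was thinned to 1000 UMIs, at least 1 Pcdh9 UMI was left in 34.3% (31.03 to 37.58, exact binomial) of keratin-low control cells and 13.1% (11.5 to 14.8) of the rest, against 30.5% (27.7 to 33.5) and 10.1% (8.84 to 11.5) in the ENZ library. Lymphocytes should lack Pcdh9. Barcodes of the same tumors gated on lymphocyte genes had 0.273% (366 cells) in the control and 0 of 458 cells in the ENZ library. That gate also left out barcodes with enough RM-1 marker UMIs to meet the cancer gate's rule. Barcodes rich in cancer-cell RNA were thus removed beforehand, so these low shares are not an independent floor for Pcdh9. A count of 0 allows up to 0.655% at 3 counts and 0.802% by the exact binomial bound. Both limits hold for the share left after thinning and not for the share of cells with the gene. Without thinning the shares were 80.5%, 54.7% and 1.09% in the control library at median depths of 14294, 20409.5 and 6038 UMIs, and 75.4%, 48.2% and 2.40% in the ENZ library at 15081, 22191 and 5510.5 UMIs. The lymphocyte gate was not pure, since 12 macrophage and monocyte markers summed there to 4314 CPM (control, led by Lyz2 at 1172) and 1741 CPM (ENZ), beside 2027 and 2124 CPM for 11 lymphocyte markers.

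Over 10 equal bins of the gate ranked by keratin share the markers were graded. In the control library Pcdh9 stood at 573.3 CPM in the lowest bin, 329.8 in bin 5 and 34.4 in the highest, and in the ENZ library at 583.0, 219.6 and 37.1. Gpc6 passed from 294.2 to 26.9 CPM and from 313.8 to 30.6 between the lowest and highest bins. Fap, the fibroblast activation protein, a surface serine protease, passed from 132.5 to 2.69 CPM and from 106.3 to 1.45. Mif, the macrophage migration inhibitory factor, a cytokine named here after its values were seen, ran the other way, from 340.9 to 1307 CPM and from 338.9 to 1242. The lowest and highest bins lay in the same order in both libraries, and in the control library Pcdh9, Gpc6, Meis2 and Efna5 were higher in bin 2 than in bin 1.

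**Figure D2:**
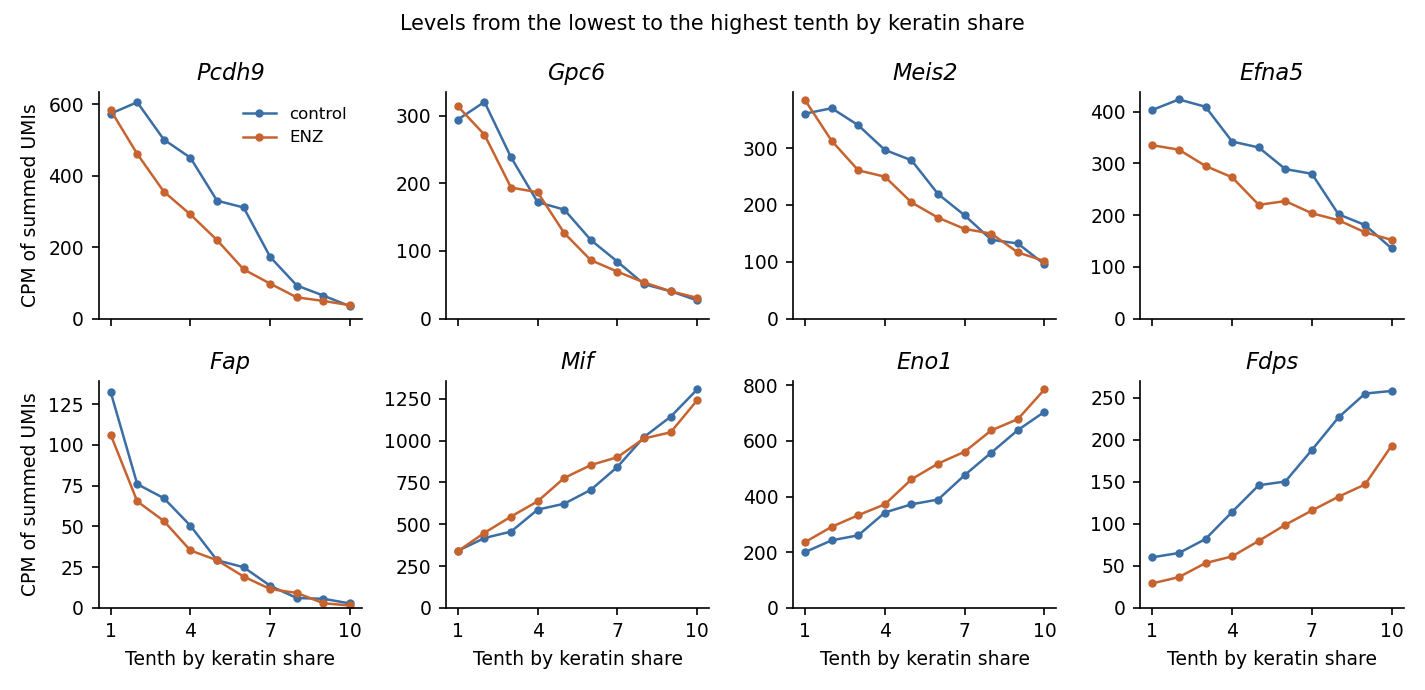
Levels (y axes, CPM of summed UMIs) of 8 genes over 10 equal bins of the non-dividing cancer cells ranked by keratin share (x axes, 1 lowest to 10 highest) in the control and ENZ libraries. Pcdh9, Gpc6, Meis2, Efna5 and Fap decline over the bins, for Pcdh9 from 573.3 to 34.4 CPM in the control library, while Mif, Eno1 and Fdps climb.

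Markers of other cells moved with the keratin rank. No Rhox5 UMI, the homeobox transcript of RM-1 cells, was counted in 22 keratin-low control cells (2.63%) and 15 ENZ cells (1.496%), against 4 and 1 cells in the rest. These 22 and 15 cells carried 12 of 12 mural markers in each library, summing to 6581 CPM (control, led by Acta2 at 1755) and 6087 CPM (ENZ, led by Rgs5 at 2442), and 11 of 11 endothelial markers, summing to 2736 and 3222 CPM and led by Flt1 in both. In the control library 17 of the 22 lay in 1 cluster and in the ENZ library 11 of the 15, and over all keratin-low cells the mural sum was 345.6 CPM (control, led by Rgs5 at 88.7) and 284.3 (ENZ, led by Rgs5 at 83.1), against 83.6 and 68.7 in the rest.

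Of keratin-low cells, 71 (control) and 42 (ENZ) lay in clusters with 5 or more markers of vascular or immune cells at 2 times the other clusters' level, and these clusters were left out in a second version of each comparison, chosen after the data were seen, in which the remaining cells were ranked again (783 and 975 keratin-low cells). In the 764 and 961 keratin-low cells outside them the mural sum was 174.4 and 174.6 CPM. The endothelial sum was 174.6 CPM against 94.1 in the rest (control) and 243.0 against 125.7 (ENZ), and 81.5 and 157.3 in keratin-low cells outside those clusters. The 12 macrophage markers summed to 239.2 CPM against 171.7 (control, led by Lyz2) and 137.0 against 89.3 (ENZ), the 6 neutrophil markers to 118.1 against 123.5 and 127.5 against 84.5 (led by Mmp9), and the 11 lymphocyte markers to 8.19 against 6.01 and 6.81 against 5.74. Of 11 markers of glia and neurons, 8 and 9 had any UMI, with sums of 20.3 CPM (control) and 21.9 (ENZ) against 20.4 and 25.5. Of 9 markers of host prostate epithelium, 8 were at 0 in keratin-low control cells and 7 in ENZ cells, with Trp63 leading at under 1 CPM in both.

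Fibroblast markers needed a closer look, since Fap and Col1a1 UMIs were counted both in fibroblast-like barcodes and in keratin-low cells. The 11 fibroblast markers summed to 527.4 CPM in keratin-low control cells against 249.8 in the rest, and to 404.2 against 192.8 in the ENZ library, led by Serpinf1, the secreted PEDF. Dcn, Lum and Dpt are among these markers, and the gate had limited them. Fibroblasts make both chains of type I collagen, and the fibroblast-like barcodes held 0.932 (0.910 to 0.956) Col1a1 UMIs per Col1a2 UMI in the control library, against 0.910 (0.890 to 0.931) with ENZ. Keratin-low cells outside the clusters of other types held 86.4 (65.6 to 116) and 27.6 (24.1 to 31.9), with 51 and 210 Col1a2 UMIs in all. Fap UMIs per Col1a2 UMI were 20.9 (15.8 to 28.3) and 5.37 (4.63 to 6.25) in those cells and 0.0140 and 0.0170 in fibroblast-like barcodes. Over all keratin-low cells the numbers were 5.57 (5.21 to 5.95) and 18.6 (16.6 to 20.8) for Col1a1 and 1.14 (1.04 to 1.24) and 3.64 (3.21 to 4.13) for Fap, and keratin-low cells with no Rhox5 UMI held 0.944 and 0.920 Col1a1 UMIs per Col1a2 UMI. Clusters with 5 or more fibroblast markers at 2 times the others were kept where they had fewer than 5 vascular or immune ones, 1 in the control library (264 cells, 163 of them keratin-low) and 2 in the ENZ library (290 and 235 cells, 206 and 178 keratin-low). Keratin-low cells of these kept clusters held 90.4 (51.5 to 176) and 19.95 (17.0 to 23.6) Col1a1 UMIs per Col1a2 UMI. Which cells these transcripts came from was not tested.

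Depth and RNA composition also moved with keratin rank. The RM-1 markers of the gate summed to 1609 CPM against 1781 in the rest (control) and 1600 against 1700 (ENZ). Keratin-low cells with no Rhox5 UMI held 897.1 (control) and 932.0 CPM (ENZ) of these markers, led by Rbfox2. Fibroblast-like barcodes held 1189.5 and 991.3 CPM. Both groups had to hold at least 5 UMIs of these markers to enter. Their levels therefore do not show how specific the markers are to RM-1 cells. The division genes, which the gate had limited, summed to 76.3 against 87.1 and 71.1 against 73.1. Median UMIs were 14294, 17644.5 and 24385.5 in the keratin-low, middle and highest classes of the control gate, and 15081, 19377 and 25145 in the ENZ gate. Genes that span 200 kb or more took 7.15% of UMIs in keratin-low control cells against 4.97% in the rest, and 7.61% against 5.57% in the ENZ library. Malat1, a nuclear long non-coding RNA, stood at 14743 CPM against 9797 and 15295 against 11398, while median mitochondrial shares were near each other at 3.06% against 3.11% and 2.79% against 3.06%. Ribosomal protein genes took 21.7% against 23.2% and 19.8% against 21.7%. The part of depth and of long or nuclear transcripts in the ratios below was not tested beyond the matched comparisons given with them. The libraries shared 43 barcodes of at least 500 UMIs, 5 of them in the gate and 0 among keratin-low cells.

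Against the rest of the gate, keratin-low control cells had 296 of 3717 genes higher (7.96%) and 145 lower (3.9%) by at least 1.5-fold, and keratin-low ENZ cells 248 of 3757 higher (6.6%) and 134 lower (3.57%). With median-of-ratios scaling in place of total UMIs the split was 217 higher and 258 lower in the control and 198 and 206 in the ENZ library. Higher in both libraries were 200 genes, 67.6% of the 296 control and 80.6% of the 248 ENZ genes, and 94 were lower in both, 64.8% of 145 and 70.1% of 134. Of the 3563 genes compared in both, 0 were past the fold in opposite directions. The classes share no cells between libraries, but the genes of a keratin rank come from the same line in both, so the overlap describes 2 tumors of 1 line. The median log2 ratio over all genes was 0.08 (control) and 0.07 (ENZ).

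**Figure D3:**
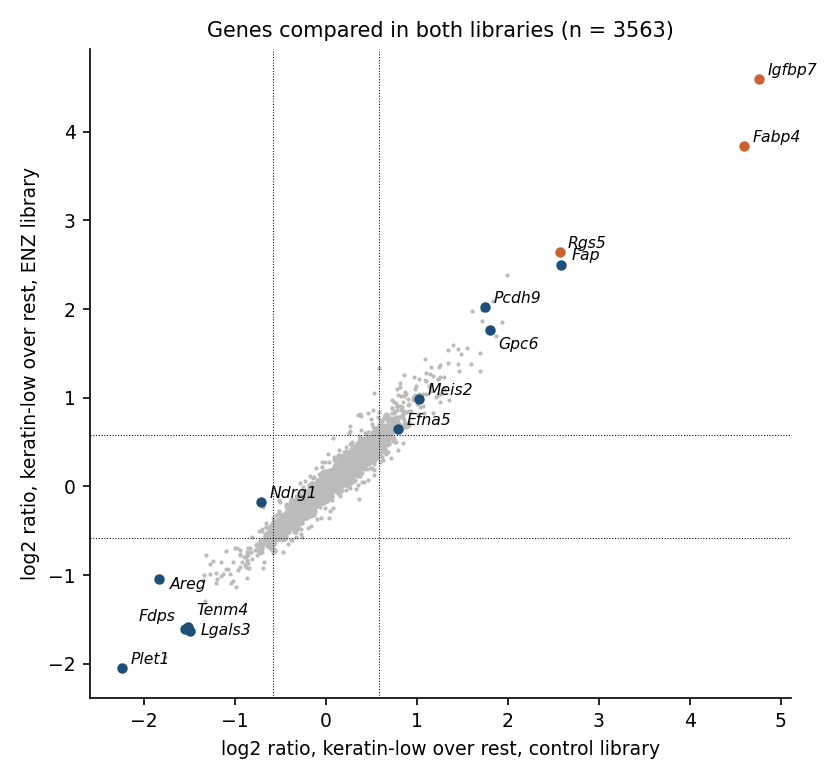
Each point is a gene compared in both libraries (n = 3563), with the log2 ratio of keratin-low cells to the rest of the gate in the control library (x axis) and the ENZ library (y axis); dotted lines mark 1.5-fold, orange points genes of vascular cells and blue points other named genes. Igfbp7 and Fabp4 stand apart at the upper right, Fap, Pcdh9 and Gpc6 follow, and Plet1, Areg, Fdps, Lgals3 and Tenm4 lie at the lower left.

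The highest control ratios were those of Ebf1, Igfbp7, Fabp4 and Col1a2, and each was smaller without the clusters of other types. Ebf1, a transcription factor of B cells and pericytes, stood at 61.0 CPM against 1.68 in the control library, a ratio of 36.3 (28.2 to 47.4), which was 1.18 without the clusters of other types. Igfbp7, a secreted protein of vessel walls, had ratios of 27.1 (control) and 24.2 (ENZ), and 1.47 and 1.31 without those clusters. Fabp4, a fatty acid binding protein of capillary endothelium, had 24.2 and 14.3, and 0.43 and 0.43 without them, a change of direction. Col1a2 had 6.77 in the control library, and 0.96 without them, and in the ENZ library, where it stood at 19.4 against 4.84 CPM and so under the level compared, 3.996 (3.37 to 4.75) and 2.74 (2.26 to 3.33). Rgs5, a pericyte regulator of G protein signalling, had ratios of 5.93 and 6.23, and Pdgfrb, the platelet-derived growth factor receptor of mural cells, 3.28 and 3.64. Without those clusters neither reached 50 CPM in either library, so neither was compared, with Rgs5 at 46.9 against 15.1 CPM (control) and 38.2 against 11.8 (ENZ) and Pdgfrb at 45.2 against 15.7 and 47.9 against 14.3.

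Fap, Abca8a, Nhs and Rasl11a, also near the top, had ratios above 3 in both libraries with and without the clusters of other types. Fap stood at 87.5 CPM (82.6 to 92.7) against 14.6 (13.5 to 15.9) in the control and 70.4 (66.4 to 74.5) against 12.4 (11.5 to 13.4) in the ENZ library, ratios of 5.98 (5.40 to 6.62) and 5.66 (5.13 to 6.26). Fibroblast-like barcodes held 91.5 (control) and 128.2 CPM (ENZ) of Fap, above keratin-low cells. Abca8a, Nhs and Rasl11a stood lower there than in keratin-low cells of both libraries. Abca8a, a lipid transporter, had 54.0 against 12.2 CPM (4.42, 3.93 to 4.97) in the control, and 41.6 against 9.69 in the ENZ library, under the level needed to be compared there.

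Nhs, an actin remodelling protein named for Nance-Horan syndrome, had ratios of 3.65 (control) and 3.24 (ENZ). Rasl11a, a small Ras-like GTPase, stood at 97.9 CPM against 26.6 in the control library, a ratio of 3.68 (3.39 to 3.99). In the ENZ library it stood at 40.2 against 8.97 CPM and was not compared. Fap, Abca8a, Nhs and Rasl11a each reached 50 CPM through the keratin-low class alone, so their ratios are descriptions. Adgrl3, a latrophilin that binds teneurins and FLRT proteins, was chosen after its values were seen and had ratios of 2.72 (2.64 to 2.81) and 2.93 (2.85 to 3.02). Adgrl3 spans 804996 bases, while Rasl11a spans 2656.

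Plet1, a surface protein of placental and epithelial progenitors, stood at 21.7 CPM (19.3 to 24.4) against 102.6 (99.45 to 105.8) in the control and 25.5 (23.1 to 28.0) against 105.7 (102.9 to 108.6) in the ENZ library, ratios of 0.21 (0.19 to 0.24) and 0.24 (0.22 to 0.27). Areg, the EGF receptor ligand amphiregulin, stood at 34.0 against 121.3 CPM and 66.7 against 137.3, ratios of 0.28 (0.25 to 0.31) and 0.49 (0.46 to 0.52). Krt76, a type II keratin outside the ranking, had 0.29 and 0.26. All 3 were lower in both libraries, with Areg nearer to the rest in the ENZ library. Plet1 and Krt76 in both libraries, and Areg in the control, reached 50 CPM through the rest alone, so those ratios are descriptions.

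Lgals3, the lectin galectin-3, had ratios of 0.36 (control) and 0.32 (ENZ), and Tenm4, a teneurin whose gene spans 739848 bases, 0.35 and 0.33. Slc16a3, the lactate exporter MCT4, had 0.40 and 0.50. Gdf15, a stress cytokine, had 0.41 and 0.54, and Tnfrsf12a, the TWEAK receptor, 0.41 and 0.51. Ppa1, the inorganic pyrophosphatase, had 0.39 and 0.48, and Mgst3, a microsomal glutathione transferase, 0.35 and 0.30 with fewer than 50 CPM in both ENZ classes. Each of these genes lay on the same side in both libraries. Tenm4 and Ppa1 in both libraries, and Slc16a3 and Mgst3 in the control, reached 50 CPM through the rest alone, so those ratios are descriptions.

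Promoters of the 2 lowest genes and of Pcdh9, the marker with the highest ENZ ratio, are shown with the same 4 motifs in capitals, to set genes from the ends of the comparison beside the keratin promoters above.
Plet1, chr9:50494275-50494574, plus strand: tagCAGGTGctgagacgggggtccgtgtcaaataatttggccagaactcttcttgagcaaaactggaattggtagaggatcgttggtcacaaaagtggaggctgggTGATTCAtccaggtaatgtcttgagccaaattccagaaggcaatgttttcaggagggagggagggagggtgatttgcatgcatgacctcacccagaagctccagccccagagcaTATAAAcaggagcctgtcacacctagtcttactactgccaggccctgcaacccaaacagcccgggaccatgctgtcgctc
Areg, chr5:91139349-91139648, plus strand: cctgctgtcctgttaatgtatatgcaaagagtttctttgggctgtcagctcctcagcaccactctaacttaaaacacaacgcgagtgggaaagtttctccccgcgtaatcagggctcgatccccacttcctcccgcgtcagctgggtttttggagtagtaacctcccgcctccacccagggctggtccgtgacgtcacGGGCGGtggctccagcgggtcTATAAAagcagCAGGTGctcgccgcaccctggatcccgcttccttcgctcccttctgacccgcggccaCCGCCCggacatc
Pcdh9, chr14:93890630-93890929, minus strand: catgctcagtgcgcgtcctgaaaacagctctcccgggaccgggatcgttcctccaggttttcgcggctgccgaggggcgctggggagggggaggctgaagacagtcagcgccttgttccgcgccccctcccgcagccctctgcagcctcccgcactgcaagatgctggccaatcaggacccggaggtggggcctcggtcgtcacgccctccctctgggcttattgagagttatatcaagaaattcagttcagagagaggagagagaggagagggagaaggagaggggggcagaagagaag
Plet1 held 1 E-box (-247), 1 AP-1 match (-144) and 1 TATA box (-30), and Areg 1 E-box (-20), 2 GC boxes and 1 TATA box (-31), while none of the 4 motifs occurred in this window of Pcdh9. The reference held 2 promoters of Pcdh9, and only the first listed was read. Over all 32851 promoters the shares were 7.81% for AP-1, 35.7% for the GC box and 13.6% for the TATA box.

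In the neural adhesion and guidance list, 6 of 9 compared control genes were higher, among them Pcdh9, Pcdh7, Sema3a, Unc5b and Tenm3, and 1 lower (Tenm4), with a median log2 ratio of 0.62, and 3 of 10 higher and 1 lower in the ENZ library, with a median of 0.47. Sema3a, a secreted guidance cue, stood at 75.7 against 39.8 CPM in the control and 71.2 against 39.9 CPM in the ENZ library. It reached 50 CPM through the keratin-low class alone, so its ratios are descriptions, though the list counts hold it. The list held 37 genes, so 28 and 27 of them were under 50 CPM in both classes. List counts here and below stand beside 7.96% higher and 3.9% lower over all control genes, and 6.6% and 3.57% over all ENZ genes. Among genes that span 200 kb or more, 107 of 320 control and 89 of 327 ENZ genes were higher. Lists were not recomputed with long genes matched, so the part of gene span in their counts was not tested. Efna5 was the only one of 19 Eph receptors and ephrins that reached 50 CPM.

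Among 29 TALE and HOX homeobox genes, 5 (control) and 4 (ENZ) were compared, and the same 3 were higher in both, Meis1 and Meis2 among them (medians 0.75 and 0.84). Meis1, a paralog of Meis2, stood at 231.4 against 137.5 CPM in the control and 201.6 against 114.0 in the ENZ library. In the list of glypicans, syndecans and heparan sulfate enzymes, Gpc6 and Ext1, which polymerises heparan sulfate, were higher in both libraries (2 of 7 and 2 of 9, medians 0.34 and 0.32). Ext1 stood at 703.9 against 425.5 CPM in the control and 808.6 against 455.0 in the ENZ library.

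Extracellular matrix genes were higher in 6 of 15 control and 7 of 14 ENZ genes (medians 0.53 and 0.49), and Col5a3 was lower in the control library. Without the clusters of other types the counts were 2 of 14 and 5 of 14 (medians 0.30 and 0.41), with Col1a1 and Col3a1 higher in both libraries. Col1a1, the main fibrillar collagen chain, stood at 429.1 against 162.6 CPM (control) and 359.0 against 118.7 (ENZ), and Col3a1 at 677.4 against 374.6 and 634.4 against 378.9. The basement membrane chain Col4a1 had ratios of 1.68 and 1.71, and 1.34 and 1.45 without those clusters. Ambient RNA, the summed RNA of barcodes with 10 to 100 UMIs, held 259.2 and 235.8 CPM of Col1a1.

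Of the 22 genes of the TGF-beta and BMP list 14 were compared, of which 4 (control) and 5 (ENZ) were higher and 0 lower, with medians of 0.40 and 0.43. Tgfbr1, Tgfbr3, Ski and Id3 were higher in both, and the inhibitory Smad7 in the ENZ library. Id3, a BMP-responsive inhibitor of basic helix-loop-helix factors, stood at 916.6 against 539.6 CPM and 662.5 against 386.0. Mesenchymal genes did not move as a block: Fn1, fibronectin, and Zeb2, a repressor of epithelial genes, were higher in both libraries, Sparc and Tnc in the ENZ library (Sparc not without the clusters of other types), while S100a4 and Lgals1 were lower in both and Vim, the mesenchymal intermediate filament, in the control. Of 14 compared genes, 2 were higher and 3 lower in the control library and 4 and 2 in the ENZ library, with medians of 0.27 and 0.29. Fn1 stood at 632.0 against 364.5 CPM and 714.2 against 349.0, and Vim at 1656 against 2509 and 1612 against 2351. All 20 epithelial genes of the list, Epcam and Cdh1 among them, were under 50 CPM in both classes of both libraries.

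Genes of energy metabolism lay below the median of all genes. In the hypoxia and glycolysis list, 12 of 19 genes were lower in the control and 10 of 19 in the ENZ library and 0 higher, with medians of -0.71 and -0.66. Eno1, enolase, stood at 240.2 against 533.6 CPM and 298.3 against 602.4, ratios of 0.45 (0.43 to 0.47) and 0.50 (0.48 to 0.51). Ldha, lactate dehydrogenase A, stood at 408.3 against 773.2 and 428.0 against 771.4. Pgk1, Pgam1, Pkm, Tpi1, Gapdh, Bnip3, Hilpda and Slc16a3 were lower in both libraries, and Ndrg1 and Vegfa in the control, Vegfa not without the clusters of other types (11 of 19).

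Cholesterol synthesis genes were lower in 5 of 6 control genes and 4 of 7 ENZ genes and higher in 0, with medians of -0.88 and -0.73. Fdps, the farnesyl diphosphate synthase, stood at 70.3 against 206.3 CPM and 41.8 against 127.3, ratios of 0.34 (0.32 to 0.36) and 0.33 (0.30 to 0.36). Hmgcs1, the HMG-CoA synthase of the same pathway, stood at 40.7 against 102.0 and 60.2 against 103.1. Fdps in the ENZ library and Hmgcs1 in the control reached 50 CPM through the rest alone, so those ratios are descriptions. In the nuclear oxidative phosphorylation list 4 and 3 of 26 genes were lower and 0 higher (medians -0.37 and -0.33), Uqcrq, Cox5a and Cycs in both. DNA replication genes had medians of -0.41 (3 compared) and -0.28 (4) with 0 past the fold, and in the ER stress and amino acid list only the serine synthesis enzymes Psat1 and Phgdh were lower, 2 of 11 in both libraries (medians -0.23 and -0.08).

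Immediate early and heat shock genes were mixed. Fos, Fosb and Jun, the AP-1 subunits, and Hspa1a were higher in both libraries, while Fosl1 and the mitochondrial chaperone Hspd1 were lower, and in all 5 of 22 genes were higher and 3 lower in the control and 7 and 2 in the ENZ library (medians 0.34 and 0.35). Fos stood at 1691 against 959.3 CPM and 1060 against 487.1. Hspa1a had 2829 and 1632 CPM in ambient RNA, above its 232.4 and 132.9 in keratin-low cells, and ratios of 1.099 and 1.093 without the clusters of other types. Among CDK inhibitors and growth arrest genes, Gadd45b was higher and Cdkn1a, p21, lower in both libraries (1 and 1 of 6, medians 0.39 and 0.41). Cdkn1a stood at 145.0 against 295.0 CPM and 159.9 against 288.1.

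The stemness list had 1 of 6 genes higher in the control (Abcg2, at 56.3 against 37.5 CPM, and 0 of 6 without the clusters of other types) and 1 of 6 lower in the ENZ library (Itga6), with medians of -0.08 and -0.02. MHC class I and interferon genes had medians of 0.08 and 0.05, with Isg15 higher in the control (1 of 12) and 0 of 12 past the fold in the ENZ library. Over all genes 7.96% were higher and 3.9% lower in the control, and 6.6% and 3.57% in the ENZ library. A count of 1 in these short lists is not read as a result about the list. Ras and Myc genes had medians of -0.13 and -0.11, with Areg lower in both libraries (1 of 11 and 1 of 10). Actin and focal adhesion genes had medians of -0.09 and -0.05, with Ccn1 higher and Actg1 lower in both libraries and Tpm2 lower in the ENZ library (18 compared in each). In the prostate lineage list Fkbp5 alone of 11 genes reached 50 CPM, with log2 ratios of 0.50 and 0.47. Of 8 nuclear RNAs 5 were compared, with Mir99ahg higher in both libraries and Malat1 in the control (medians 0.33 and 0.22).

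**Figure D4:**
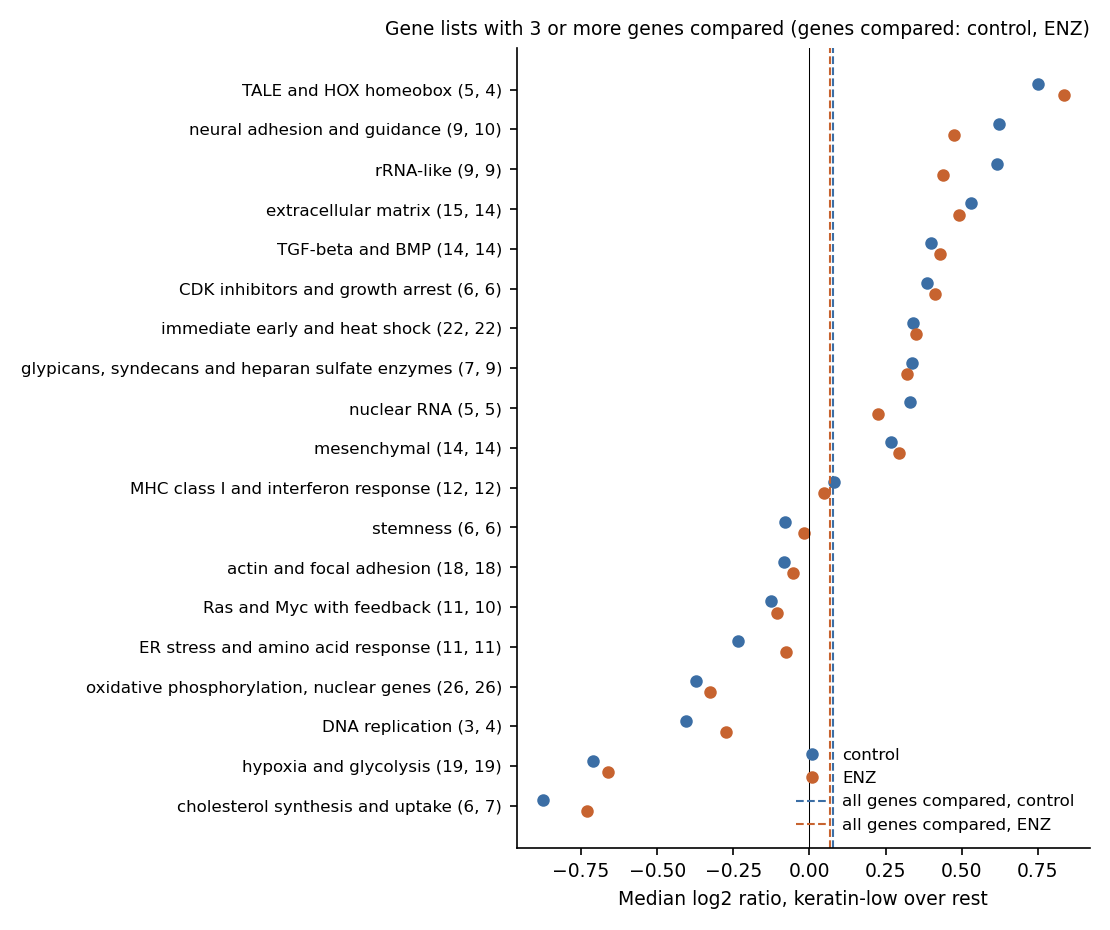
Median log2 ratio of keratin-low cells to the rest of the gate (x axis) for each gene list with at least 3 genes compared, lists of cell type markers left out (y axis, with the numbers compared in the control and ENZ libraries); dashed lines are the medians of all genes compared. Cholesterol (-0.88 and -0.73) and hypoxia and glycolysis (-0.71 and -0.66) genes lie lowest of the lists shown and TALE and HOX genes (0.75 and 0.84) highest.

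Ratios went with gene span. In the control library the median log2 ratio was -0.25 over 856 genes under 10 kb, -0.07 over 1355 genes of 10 to 50 kb, 0.29 over 1186 genes of 50 to 200 kb and 0.50 over 320 genes of 200 kb and over. In the ENZ library the medians were -0.23, -0.04, 0.25 and 0.41. Of the longest genes 107 were higher and 2 lower in the control library, and 89 and 7 in the ENZ library, while of genes under 10 kb 32 were higher and 73 lower, and 23 and 65. All 4 markers fall in the longest class.

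**Figure D5:**
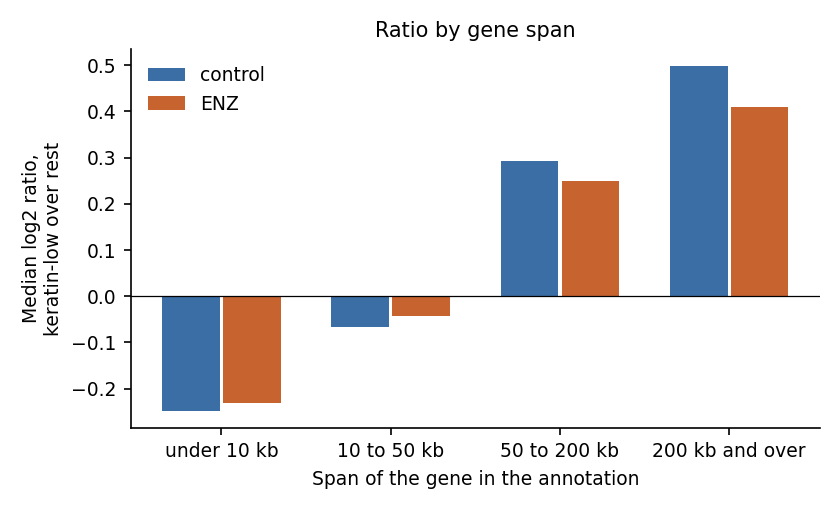
Median log2 ratio of keratin-low cells to the rest of the gate (y axis) by the span of the gene in the GRCm38 annotation (x axis) in the control and ENZ libraries. Medians pass from -0.25 and -0.23 for genes under 10 kb to 0.50 and 0.41 for genes of 200 kb and over.

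When equal numbers of keratin-low cells and of the rest were drawn within 20 bins of a matching measure, all 4 markers had log2 ratios above 0 but smaller ones. Matched on UMIs, the log2 ratios were 1.28 (control) and 1.36 (ENZ) for Pcdh9, from 1.75 and 2.02 without matching, and 1.14 and 1.16 for Gpc6, from 1.81 and 1.76. Matched on the share of UMIs in genes of 200 kb and over, leaving out the markers themselves, they were 0.78 and 0.93 for Pcdh9, 1.01 and 0.89 for Gpc6, 0.38 and 0.39 for Meis2 and 0.11 and 0.05 for Efna5. Under that matching Fap had log2 ratios of 1.94 and 2.07, from 2.58 and 2.50 without it. Plet1 had -2.09 and -1.83, from -2.24 and -2.05, and Fdps -1.18 and -0.88, from -1.55 and -1.61. Over all genes, 67 were then higher and 55 lower in the control library and 55 and 42 in the ENZ library. Meis2 and Efna5 were not past the fold in either library under the matching on long genes.

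Clusters built without keratins and the genes of the gate held keratin-low cells at unequal shares. In the control library keratin-low cells made up 74.1% (67.9 to 79.7) of a cluster of 228 cells led by Rasl11a, Cebpd, Socs3, Osmr and Pcdh9, and 61.7% (55.6 to 67.6) of 264 cells led by Pdgfc, Pde1a, Pcdh9 and Gpc6. In the ENZ library they made up 75.7% (69.7 to 81.1) of 235 cells led by Serpina3n, Zfp385b, Gpc6 and Rasl11a, 71.0% (65.4 to 76.2) of 290 cells led by Pdgfc, Pcdh9, Acta2, Gpc6 and Col1a1 (8 fibroblast markers at 2 times the others), and 63.1% (57.3 to 68.6) of 298 cells led by Pcdh9, Cebpd and Tnc. The first 2 control clusters held 20.2% and 19.5% of all keratin-low cells, and the 3 ENZ clusters 17.7%, 20.5% and 18.7%. The highest share was that of a small control cluster with 12 mural and 11 endothelial markers, led by Gpihbp1, Tagln and Brinp3, in which 19 of 21 cells (90.5%, 69.6 to 98.8) were keratin-low, and an ENZ cluster of 61 cells with 12 and 11 of the same markers, led by Gpihbp1, had 57.4% (44.1 to 70.0). Clusters led by Areg and Plet1 held few, 4.57% (2.21 to 8.24) of the control and 0.80% (0.10 to 2.86) of the ENZ cluster, as did an ENZ cluster of 318 cells led by Hmgcs1, Idi1, Tenm4 and Fdps (4.40%, 2.43 to 7.28). Clusters led by division genes outside the gate's limit also held keratin-low cells. These were 22 of 122 cells of a control cluster led by Hmmr, Birc5 and Cdc20. In the ENZ library they were 20 of 160 cells led by Hmmr, Birc5 and Cenpa, and 40 of 109 led by Slfn9, Pclaf and Uhrf1. The intervals are exact binomial, and the cells of 1 tumor are not independent of each other. Clusters were drawn for each library alone and are not matched to each other.

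ENZ and control keratin-low cells differed at fewer genes than keratin-low cells and the rest. Of 3682 genes, 25 were higher (0.679%) and 53 lower (1.44%) in ENZ keratin-low cells by at least 1.5-fold, and in the rest of the gate 15 of 3546 were higher and 46 lower. Camk1d, the calcium/calmodulin-dependent kinase of the study, stood at 979.0 CPM (962 to 996) in control and 2005 (1983 to 2026) in ENZ keratin-low cells, a ratio of 2.05 (2.01 to 2.09) that was 2.36 in the rest of the gate. Camk1d is on a list of 9 genes with rRNA-like reads in droplet libraries, of which 7 were higher in ENZ keratin-low cells (median log2 1.08), among them Gm42418 (17798.5 against 42036 CPM), Lars2, Cmss1, Gphn, Cdk8 and Gm19951, which had the highest ratio, 3.61 (3.44 to 3.79). Against the rest of the gate 5 of the 9 were higher in the control library and 1 in the ENZ library (medians 0.62 and 0.44). Ambient RNA held 6391 CPM (control) and 6652 CPM (ENZ) of Camk1d, above its level in keratin-low cells. With an ambient profile subtracted, at the share set by Tyrobp, Fcer1g, Lyz2 and Cd74, the log2 ratio of Camk1d was 1.67, from 1.03. Cd44, a hyaluronan receptor, stood at 302.5 CPM in control and 383.9 in ENZ keratin-low cells. Its ENZ-to-control ratio was 1.27 (1.22 to 1.32), and 1.22 in the rest.

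Other genes higher in ENZ keratin-low cells were Flt1, the VEGF receptor 1, at 58.9 CPM (54.9 to 63.2) in control and 143.9 (138.2 to 149.8) in ENZ cells, a ratio of 2.44 (2.25 to 2.65). Without the clusters of other types the ratio was 3.41, and it was 1.80 in the rest of the gate. Col5a3, a minor fibrillar collagen, had a ratio of 1.94 (1.77 to 2.14), and the replication-dependent histones Hist1h2ap and Hist1h4d had 2.40 and 1.99. The ENZ cluster led by Slfn9, Pclaf and Uhrf1, with Hist1h1b among its leading genes, held 40 keratin-low cells. Its part in the histone ratios was not tested. In the rest of the gate the ratio of Col5a3 was 1.74.

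Lower in ENZ keratin-low cells were Gadd45g, a stress-induced growth arrest gene, at 224.8 CPM (216.8 to 233.0) in control and 84.0 (79.6 to 88.5) in ENZ cells, a ratio of 0.37 (0.35 to 0.40), and Rasl11a with 0.41 (0.37 to 0.45). In the rest of the gate the ratios were 0.35 and 0.34. Rasl11a reached 50 CPM through control cells alone, so its ratio is a description. Of 21 immediate early and heat shock genes 7 were lower and 0 higher (median log2 -0.44), Fos, Jun, Ier2, Hspa1a, Hspa1b, Dnajb1 and Hsph1. Fos stood at 1691 CPM in control and 1060 in ENZ cells. Ambient RNA was lower with ENZ for all 7, above the cells for Hspa1a (2829 and 1632 CPM), Hspa1b (2289 and 1385), Hsph1 (790.4 and 431.7) and Dnajb1 (234.8 and 130.3) and below them for Fos (536.5 and 323.0), Jun and Ier2, and its part in these ratios was not tested. Of 6 CDK inhibitor and growth arrest genes Btg2, Gadd45b and Gadd45g were lower (median -0.55). In each other list, apart from the rRNA-like genes, at most 1 gene passed the fold in a direction: Ndrg1, Col5a3, Flt1 and Areg were higher, and Hilpda, Col1a2, S100a4, Fdps, Ifi27l2a and Lyz2 lower, with Areg at 1.963 (1.758 to 2.195), and at 1.13 in the rest of the gate. Without the clusters of other types 8 immediate early and heat shock genes were lower, Atf3 with them, and in the matrix list Col4a2, Col5a3 and Thbs1 were higher and 0 lower.

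The genes of antigen-presenting and myeloid cells among the lowest stood far higher in ambient RNA. H2-Eb1, H2-Ab1, H2-Aa and Cd74, of MHC class II, and Lyz2 and Il1b, of myeloid cells, had ratios of 0.31 to 0.39, and 0.47 to 0.62 without the clusters of other types. Cd74 stood at 143.9 CPM in control and 53.3 in ENZ keratin-low cells, with 1438 and 733.8 CPM in ambient RNA. With the ambient profile subtracted, the log2 ratios were -1.76 for H2-Eb1, -1.56 for H2-Ab1, -1.26 for H2-Aa, -1.87 for Cd74 and -2.66 for Il1b, from -1.70, -1.66, -1.49, -1.43 and -1.37. Cd74 and Lyz2 were among the genes that set the share subtracted, and Lyz2 gave no value there. The limit of that share given for Camk1d holds for these values too. Col1a2 had the lowest ratio of all, 0.25 (0.22 to 0.28), at 77.1 CPM in control and 19.4 in ENZ cells. Without the clusters of other types its ratio was 3.19, a change of direction.

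Compared between the classes, the ENZ-to-control ratio in keratin-low cells was within 1.5-fold of that in the rest for all 1377 genes with at least 100 CPM in every class. The highest ratio of ratios was 1.44 for Ndrg1, a hypoxia-responsive gene, at 107.3 (control) and 172.5 CPM (ENZ) in keratin-low cells and 175.6 and 195.5 in the rest. Dusp1, a MAP kinase phosphatase, had 1.38, Zfp36, which destabilises AU-rich mRNAs, 1.29, and Hes1, a Notch target, 1.28. The lowest were the chaperone Hsph1 at 0.76, the potassium channel Kcnq5 at 0.80, Oxr1 at 0.83 and the receptor phosphatase Ptprg at 0.84. Zfp36 stood at 1095 and 874.5 CPM in keratin-low cells and 793.4 and 491.7 in the rest. Areg, at 34.0 CPM in control keratin-low cells and so under the 100 CPM asked for here, had a ratio of ratios of 1.73 (1.54 to 1.95). With 1 library a condition these differences were not tested.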

How the data were processed

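Single-cell RNA sequencing of 1 control and 1 ENZ library was deposited as raw UMI counts per gene and barcode, with every barcode listed. The file header names Cell Ranger 7.2.0, while the submitters' processing notes name Cell Ranger 2.1.1 and mm10; whether intronic reads were counted is not given in the sources used here, and it bears on long genes. The members, lists, markers and tests were chosen with earlier results of these data known. UMIs were summed over cells of a class and scaled to CPM by total UMIs, with exact Poisson intervals for levels and exact conditional binomial intervals for ratios, tested on simulated data. Genes of the gate and ranking and mitochondrial genes were left out, and a gene was compared at 50 CPM or more in either class. Where only 1 of the classes reached that level, the ratio is a description, also for genes counted in lists. Ambient RNA was the sum of barcodes with 10 to 100 UMIs. Clusters (scanpy 1.11.5, leidenalg 0.10.2, resolution 1) used 2000 variable genes, 30 components and 15 neighbours. Doublets were not removed; the 5% with the highest scrublet scores were left out in 1 of 14 alternatives, and 4 more were chosen after seeing the data. Named were the 12 highest and 12 lowest genes of keratin-low against rest (control, ordered by whichever interval bound lay closer to 1), the 10 highest and 10 lowest of ENZ against control, the 4 highest and 4 lowest ratios of these ratios between keratin-low cells and the rest (at least 100 CPM in every class), up to 4 members of each list with the highest CPM and any past 1.5-fold, the markers, Camk1d and Cd44. Of the 24 genes of the first rule 18 had a RefSeq promoter; Pcdh9 was printed in place of Ebf1 and Igfbp7 after values were seen. Spans came from GENCODE M21 (GRCm38), with 32235 of 32285 identifiers matched. Tools were pandas 2.3.3, scipy 1.17.1 and numpy 2.4.6 under Python 3.11.15. Some genes that these rules name are not reported here.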

Additional observations from a re-analysis of the deposited data

How the results depend on the processing

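No paired analysis was possible because there is 1 library a condition and the labels give no replicate numbers. Of 106 counts of genes recomputed under 18 alternatives, 77 were within 1.5 times the main count, and 29 moved. Against the class with the most keratin only, genes higher and lower numbered 650 and 360 (control) and 464 and 277 (ENZ); that setting leaves the keratin-low cells as they are and gives no ENZ-to-control value. With genes of at least 20 CPM they were 530 and 280, 425 and 249, and 55 and 115 (ENZ against control), and with no filter 4448 and 1816, 3986 and 1962, and 1552 and 2890, as more genes were compared. Thinning left 90 lower in the control library, median-of-ratios scaling gave 258 and 206 lower, and a denominator without mitochondrial, ribosomal, rRNA-like and keratin genes gave 218 lower (control) and 39 higher (ENZ against control). With the rest matched on UMIs the counts were 159 and 51, and 128 and 39, and matched on long genes 67 and 55, and 55 and 42; the cause was not tested. Of 1468 log2 ratios of named genes 1459 kept their sign and 9 changed it. Camk1d against the rest in the ENZ library, at 0.31 and not past the fold, was -0.032 with long genes matched. Fabp4 against the rest reversed in the control library to -1.02 without cells with 3 or more vascular UMIs, -0.21 with Rhox5 required and -1.20 without clusters of other types, and in the ENZ library to -1.81 and -1.22 under the first and last of these. Without vascular UMIs Ebf1 reversed to -0.040 in the ENZ library, and without the clusters Col1a2 to -0.057 against the rest (control) and to 1.67 for ENZ against control. Leaving out a library was not possible. Lyz2 (ENZ against control) had no value with ambient RNA subtracted. Genes under 50 CPM in both classes were compared only under the lower filters.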
